A study of Mus musculus with 2 samples.

Results

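The 7 mitochondrially encoded genes of respiratory complex I, mt-Nd1, mt-Nd2, mt-Nd3, mt-Nd4, mt-Nd4l, mt-Nd5 and mt-Nd6, were described in single-cell RNA libraries of mouse pancreatic islets. They were taken by symbol, all 7 were found, and they are 7 of 13 mitochondrially encoded genes and of 32285 genes in all. The mice of both groups are called DIO mice in the labels. One group had been given an agent labelled CDS at 10 mg/kg and the other saline, each over 2 weeks. Each group is 1 droplet library, and the labels give no genotype, strain, sex, age, diet or number of animals, or how many were pooled. The title of the series names an antagonist of the alpha2A-adrenergic receptor; that CDS stands for it is not stated. With 1 library per group no difference has a replicate check, so no p-value is given. The 95% intervals cover counting error only.

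Complex I takes electrons from NADH, passes them to ubiquinone and pumps protons across the inner mitochondrial membrane. Its membrane arm has the mitochondrially encoded subunits, while most of its other subunits are encoded in the nucleus and imported. In beta cells, ATP made by the respiratory chain closes potassium channels and so couples glucose to insulin secretion. Mitochondrial genes are transcribed as long precursors from both strands of a circular genome and cut into single messengers, mostly at the transfer RNAs between them. Most of these messengers carry short poly(A) tails, and mt-Nd6, the only protein gene on the light strand, is known to lack a stable one in human cells. The libraries were made from poly(A) RNA, per the labels' protocols.

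The 3′ ends of the members are shown because a poly(A)-primed library reads from there. Each line gives the last 30 bases of the gene on its own strand, 5′ to 3′, with the stop codon, or the part of it that the genome encodes, in capitals (GENCODE M21, GRCm38).
mt-Nd1: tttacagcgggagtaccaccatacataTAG
mt-Nd2: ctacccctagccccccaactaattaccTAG
mt-Nd3: acacaaaaaggattagaatgaacagagTAA
mt-Nd4: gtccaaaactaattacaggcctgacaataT
mt-Nd4l: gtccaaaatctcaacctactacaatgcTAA
mt-Nd5: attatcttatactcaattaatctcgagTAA
mt-Nd6: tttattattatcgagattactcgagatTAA
For mt-Nd4 the genome encodes a single base of the stop codon, and the tail is known to complete such codons; the other 6 end in a complete one. Each gene has 1 exon. On the mitochondrial chromosome of GRCm38, mt-Nd1 lies at 2751 to 3707, mt-Nd2 at 3914 to 4951, mt-Nd3 at 9459 to 9806, mt-Nd4l at 9877 to 10173, mt-Nd4 at 10167 to 11544 and mt-Nd5 at 11742 to 13565, all on the plus strand. mt-Nd6 lies at 13552 to 14070 on the minus strand.

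2 pairs of members overlap, so reads over the shared bases match both genes by position. The capitals below mark the shared bases, read on the plus strand.
mt-Nd4l into mt-Nd4: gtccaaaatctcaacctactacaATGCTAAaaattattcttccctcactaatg
mt-Nd5 against mt-Nd6: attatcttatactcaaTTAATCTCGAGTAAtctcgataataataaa
The first pair shares 7 bases (10167 to 10173) on the same strand, where mt-Nd4 begins before mt-Nd4l has ended, and both are carried on 1 messenger. The second pair shares 14 bases (13552 to 13565) on opposite strands. Whether the counting used strand is not given in the sources used here, so UMIs of these pairs may be split between partners. The mouse nuclear genome also holds copies of mitochondrial sequence, and how reads that match both were assigned is not given either.

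Runs of A inside a messenger are a further place where an oligo(dT) primer can bind, so the first of the longest run in each of 4 members is shown in capitals with 10 bases on either side, on the gene's own strand.
mt-Nd2: actaatcaacAAAAAAAAcccacgatca
mt-Nd4: atcaagccctAAAAAAAcctgaacaaa
mt-Nd5: aaacgacatcAAAAAAAtcattgcctt
mt-Nd6: ggttagcattAAAgccttcacct
The run is 8 bases long in mt-Nd2, 7 in mt-Nd4 and mt-Nd5, and 3 in mt-Nd6. mt-Nd2 has 6 runs of at least 5 A, mt-Nd4 has 5 and mt-Nd5 has 7. mt-Nd6, whose messenger is 43.7% T and 22.2% A, has 0, as does mt-Nd4l. mt-Nd1 has 1 and mt-Nd3 has 2. These are descriptions of the sequence, and priming sites were not examined.

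The CDS library held 7268 barcodes and 141191447 UMIs (tags that mark single captured RNA molecules), and the saline library 12453 barcodes and 124343325 UMIs. Mitochondrially encoded genes took 1.55% of UMIs in the CDS library and 2.62% in the saline library. After filters 6159 CDS cells and 10977 saline cells remained, with medians of 19070 UMIs in CDS and 9794 in saline cells. Cells were then gated on hormone RNA share or marker genes, with no mitochondrial gene in the gates or their denominators. Beta-like cells, the insulin makers, numbered 3776 in the CDS library and 5107 in the saline library, and alpha-like cells, the glucagon makers, 816 in CDS and 742 in saline. Delta-like (somatostatin) cells were 226 in CDS and 329 in saline, PP-like (pancreatic polypeptide) cells 118 in CDS and 205 in saline, endothelial-like cells 251 in CDS and 346 in saline, and macrophage-like cells 140 in CDS and 144 in saline. Insulin RNA was a median of 40.5% of the non-mitochondrial UMIs in CDS beta-like cells and 35.3% in saline ones, against 1.45% to 2.10% in the 5 other compared classes of both libraries. Of the barcode sequences kept by the filter on cells, 19 occurred in both libraries. The label reads islet b cell, and the libraries held the other classes too.

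In beta-like cells the membrane-arm genes had unequal levels, and every member had a lower share of all UMIs in the CDS library. mt-Nd4, which encodes one of the antiporter-like subunits thought to carry protons, was the most counted member, with 167540 UMIs or 1625 CPM (UMIs per 1000000 UMIs of the class; 95% interval 1617 to 1633) in CDS cells and 223210 UMIs or 2726 CPM (2715 to 2737) in saline cells. mt-Nd2, a second antiporter-like subunit, had 1063 CPM (1057 to 1069) in CDS cells and 2518 CPM (2507 to 2529) in saline cells. mt-Nd5, the third and outermost of them, had 429.8 CPM (425.8 to 433.8) in CDS cells and 1089 CPM (1082 to 1096) in saline cells. For each of the 3 the levels of the libraries lay far outside each other's counting intervals.

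mt-Nd1, which helps form the ubiquinone-binding site, stood at 603.7 CPM in CDS beta-like cells and 1112 CPM in saline ones. mt-Nd3, whose matrix loop shifts between the active and resting forms of the enzyme, had 171.9 CPM in CDS cells and 290.0 CPM in saline cells. mt-Nd4l, a small subunit next to mt-Nd6 in the membrane, had 389.6 CPM in CDS cells and 679.0 CPM in saline cells. mt-Nd6 was by far the least counted, with 1698 UMIs or 16.5 CPM (15.7 to 17.3) in CDS cells and 3768 UMIs or 46.0 CPM (44.6 to 47.5) in saline cells.

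**Figure D1:**
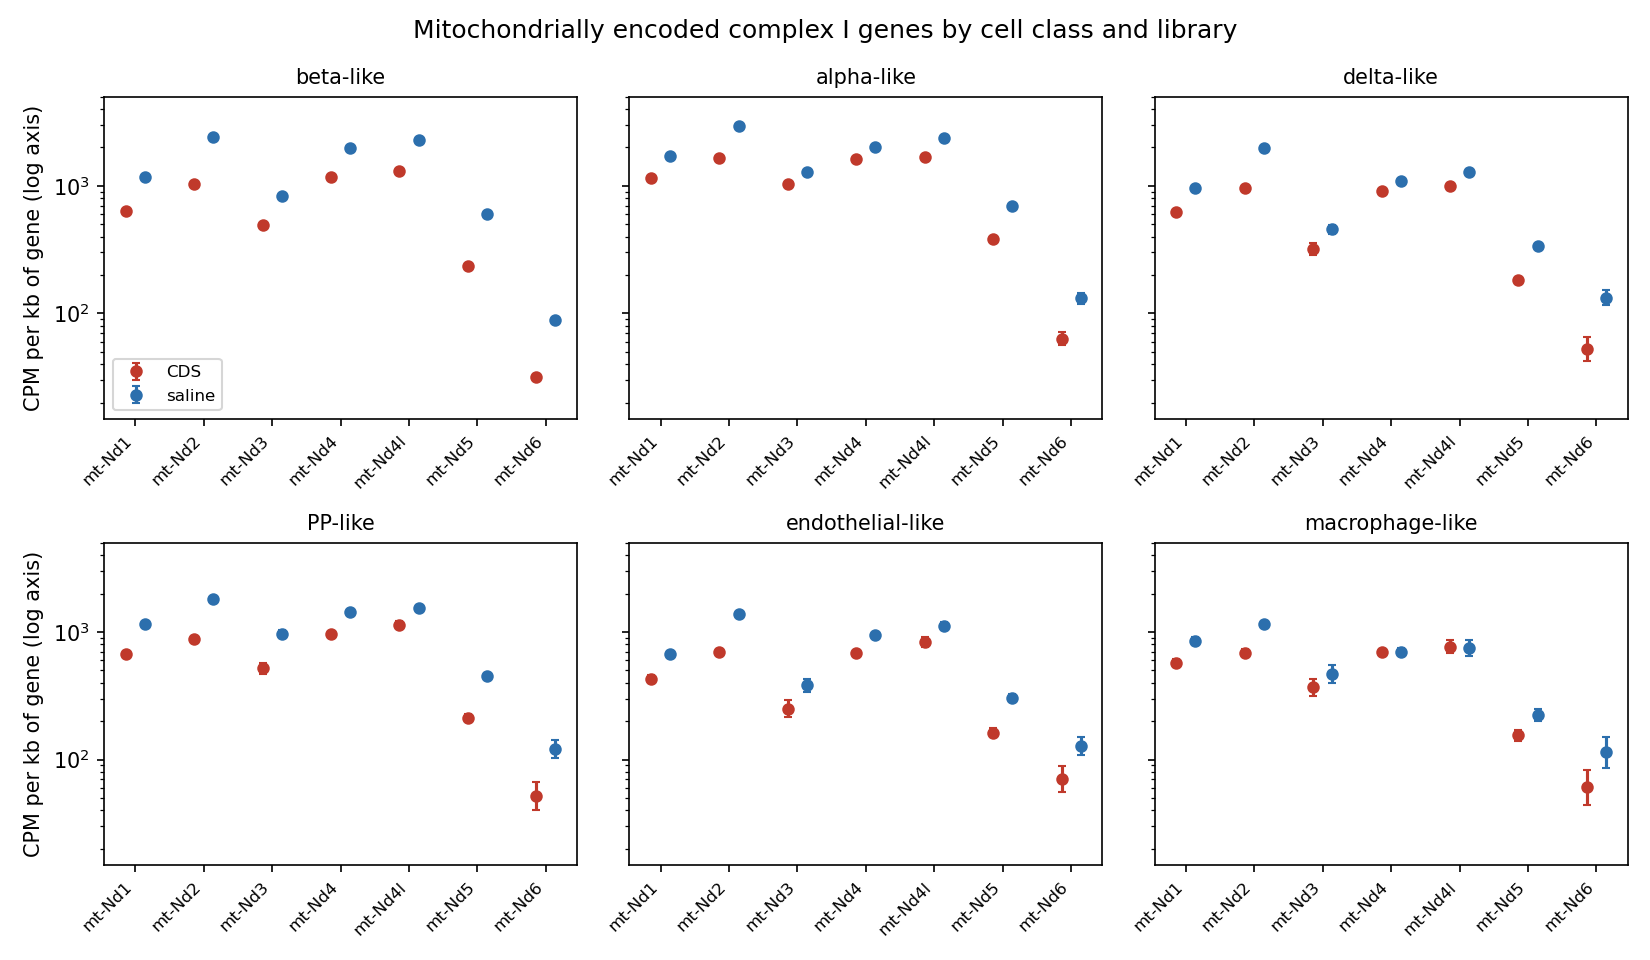
Level of each complex I gene per kb of gene (CPM per kb, log axis) in 6 cell classes, CDS library in red left of the saline library in blue, with 95% Poisson intervals. mt-Nd6 is the lowest and mt-Nd5 the next lowest gene in every panel, and in beta-like cells mt-Nd6 stands at 31.7 CPM per kb (CDS) and 88.7 CPM per kb (saline).

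Per kb of gene, the lowest places were the same in every class. mt-Nd6 ranked 13th and mt-Nd5 12th of the 13 mitochondrially encoded genes in each of the 16 class-by-library sums with at least 50 cells. The order above them varied, and mt-Nd2 ranked between 4th and 8th. In CDS beta-like cells the highest members per kb were mt-Nd4l at 1312 and mt-Nd4 at 1179 CPM per kb, and in saline beta-like cells mt-Nd2 at 2426 and mt-Nd4l at 2286 CPM per kb. Because a 3′ library is meant to count messengers and not fragments along them, dividing by length lowers long genes such as mt-Nd5. Without this division mt-Nd5 had more UMIs than mt-Nd3, mt-Nd4l and mt-Nd6 in CDS and in saline beta-like cells. Still, mt-Nd4l had 40166 CDS and 55601 saline UMIs there, though it shares 1 messenger with mt-Nd4. UMIs of a gene are thus not a plain count of its messengers.

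As UMIs per cell the members differed less between the libraries, because CDS beta-like cells held a median of 27280 UMIs in all and saline ones 15710. Whether these totals differ through sequencing, capture or RNA content was not tested. A CDS beta-like cell held on average 44.4 UMIs of mt-Nd4, and a saline one 43.7. For mt-Nd3 the means were 4.69 in CDS cells and 4.65 in saline cells, and for mt-Nd4l 10.6 in CDS and 10.9 in saline cells. mt-Nd2 had 29.0 UMIs per CDS cell and 40.4 per saline cell, mt-Nd5 11.7 per CDS and 17.5 per saline cell, and mt-Nd6 0.450 per CDS and 0.738 per saline cell. All 7 together came to 117.4 UMIs per CDS cell and 135.7 per saline cell, and all 13 mitochondrially encoded genes to 399.6 per CDS and 420.4 per saline cell. Thus mt-Nd3, mt-Nd4 and mt-Nd4l had near-equal UMIs per cell in the libraries, whereas mt-Nd2, mt-Nd5 and mt-Nd6 were lower in CDS cells on this scale too. mt-Nd1 lay between these groups, with 16.5 UMIs per CDS cell and 17.8 per saline cell.

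Single beta-like cells varied widely around these means. CDS cells held a median of 110 complex I UMIs (quartiles 59 and 165), and saline cells 131 (88 and 177). As a share of the cell's UMIs the median was 4012 CPM in CDS cells (quartiles 2592 and 5742) and 8171 in saline cells (6006 and 10900). After TMM scaling the quartiles were 2973 and 6586 in CDS cells and 5237 and 9500 in saline cells, so that the ranges between quartiles overlapped on that scale and not on plain CPM. No mt-Nd6 UMI was found in 2626 of 3776 CDS cells and in 2787 of 5107 saline cells, and no mt-Nd4l UMI in 265 CDS and 120 saline cells. With a mean below 1 mt-Nd6 UMI per cell, cells without one cannot be called negative at this depth.

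**Figure D2:**
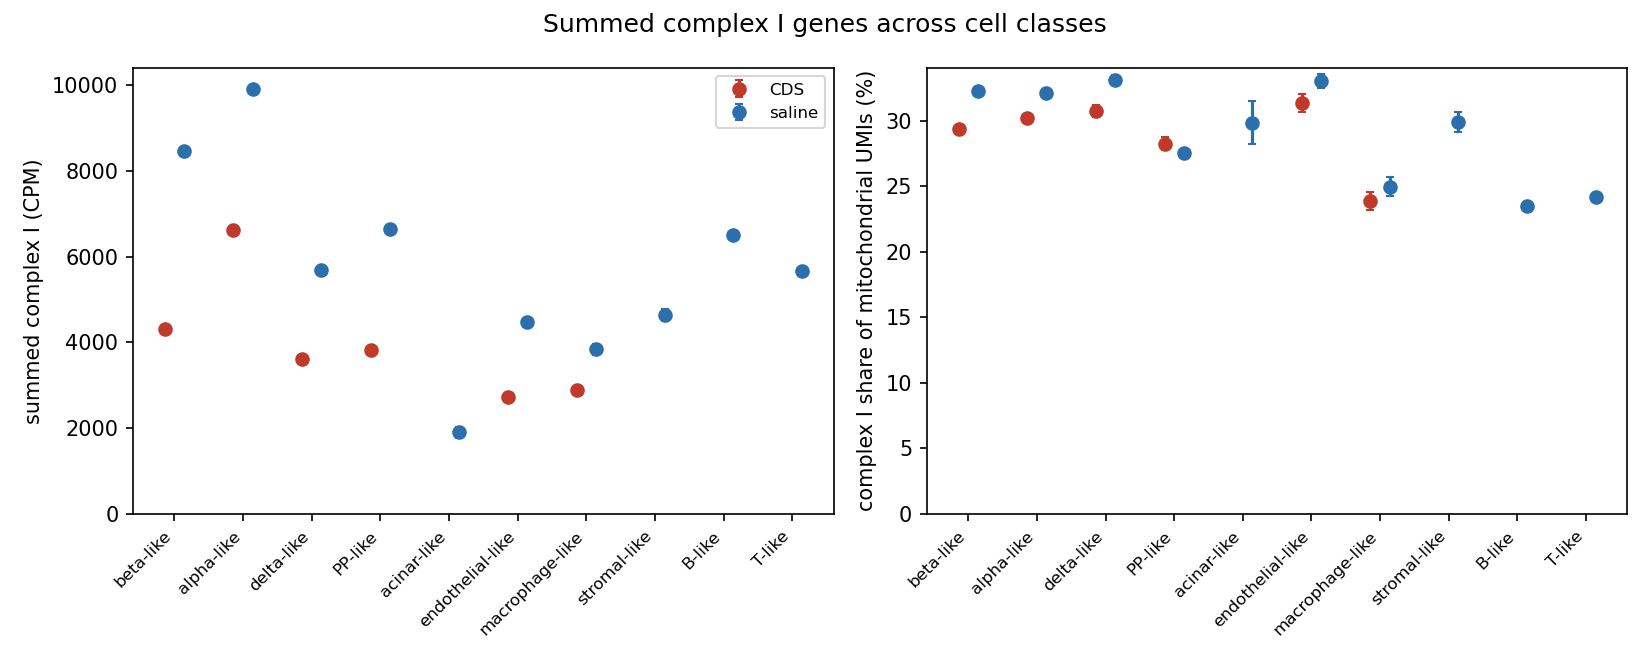
Summed complex I genes by cell class, as CPM on the left and as a share of all mitochondrially encoded UMIs on the right, CDS library in red and saline library in blue, with 95% counting intervals. With hormone RNA in the denominator alpha-like cells have the highest CPM in each library (6612 in CDS, 9916 in saline), though beta-like cells have more complex I UMIs per cell (117.4 in CDS, 135.7 in saline), and macrophage-like, B-like and T-like cells have the lowest shares, between 23.45% and 24.96%.

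Across cell classes the summed complex I level, as CPM of all UMIs with hormone RNA among them, was highest in alpha-like cells of each library, at 6612 CPM (6560 to 6664) in the CDS library and 9916 CPM (9837 to 9995) in the saline library. In the CDS library it was followed by beta-like cells at 4300 CPM, PP-like at 3820, delta-like at 3608, macrophage-like at 2892 and endothelial-like at 2737. The intervals of neighbours in this order did not overlap except for macrophage-like (2802 to 2984) and endothelial-like cells (2666 to 2810), which met narrowly. In the saline library beta-like cells followed at 8461 CPM, then PP-like at 6646, B-like at 6511, delta-like at 5684, T-like at 5666, stromal-like at 4633, endothelial-like at 4474, macrophage-like at 3833 and acinar-like at 1901. There PP-like and B-like cells, delta-like and T-like cells, and stromal-like and endothelial-like cells could not be told apart within counting error. This order of alpha-like and beta-like cells depends on the denominator. With hormone, enzyme and mitochondrial UMIs left out of it, alpha-like cells had 7812 CPM and beta-like cells 7443 in the CDS library, and alpha-like cells 11690 and beta-like cells 13610 in the saline library. As UMIs per cell, beta-like cells held the most of all classes, with 117.4 in the CDS and 135.7 in the saline library, against 76.6 in CDS and 81.5 in saline alpha-like cells. In the CDS library B-like, T-like, stromal-like and acinar-like cells numbered under 50 each and are not given.

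The share of complex I within mitochondrially encoded UMIs, which does not depend on nuclear or hormone RNA, was lower in the 3 immune classes than in the rest. It was 23.9% (23.2 to 24.5) in CDS macrophage-like cells and 24.96% (24.2 to 25.7) in saline ones, 23.5% (23.2 to 23.7) in saline B-like and 24.2% (23.9 to 24.5) in saline T-like cells. In the other classes it was 28.2% to 31.3% in the CDS library and 27.5% to 33.1% in the saline library. mt-Nd4 was among the members with a lower share there, with 6.03% to 6.48% of mitochondrial UMIs in the 3 immune classes of the saline library and 7.71% to 10.4% in its other classes. In the CDS library it had 7.93% in macrophage-like cells and 9.78% to 11.1% in the others. Saline B-like and T-like cells were shallow, with medians of 1821 and 2251 UMIs. Insulin RNA was a median of 4.97% of non-mitochondrial UMIs in these B-like and 4.19% in these T-like cells. Of 1155 B-like cells 225, and of 1289 T-like cells 312, had only the 3 marker genes required.

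mt-Nd6 had its lowest share of mitochondrial UMIs in beta-like cells, at 0.112% (0.107 to 0.118) in the CDS library and 0.175% (0.170 to 0.181) in the saline library. Alpha-like cells were next, with intervals that met those of PP-like cells, at 0.151% (0.134 to 0.168) in the CDS library and 0.221% (0.201 to 0.244) in the saline library. In endothelial-like cells the share was 0.422% (0.332 to 0.528) in the CDS library and 0.489% (0.414 to 0.574) in the saline library. Against its antisense neighbour mt-Nd5, mt-Nd6 made 3.69% of the pair's UMIs in CDS beta-like cells and 4.05% in saline ones, but 11.1% in CDS and 10.6% in saline endothelial-like cells. mt-Nd4l stayed in a narrow proportion to mt-Nd4, its partner on the same messenger, at 19.3% of the pair in CDS and 19.9% in saline beta-like cells. Alpha-like cells had 18.2% (17.7 to 18.7) in the CDS and 20.4% (19.9 to 20.9) in the saline library, and the 16 sums ranged from 18.2% to 22.4%.

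For the comparison of CDS with saline, class sums were scaled by TMM factors. These centre a trimmed mean of the gene ratios near 1 and assume that most genes do not differ. A gene was counted as lower at a ratio of 0.8 or less, and as higher at or above the inverse of 0.8. In both cases the interval had to exclude 1. In beta-like cells 7 of 7 members were lower. Of all genes with at least 50 UMIs there, 18.9% were lower and 27.5% higher, so many lay away from 1 after scaling. Summed complex I stood at a ratio of 0.669 (0.666 to 0.671), from 4931 TMM-scaled CPM in CDS cells and 7377 in saline cells. The ratios were 0.471 (0.444 to 0.499) for mt-Nd6, 0.519 (0.513 to 0.525) for mt-Nd5 and 0.555 (0.551 to 0.559) for mt-Nd2. They were 0.714 for mt-Nd1, 0.755 for mt-Nd4l, 0.780 for mt-Nd3 and 0.784 (0.779 to 0.789) for mt-Nd4, the last 2 just past the limit. The median log2 ratio of the members was -0.49. Within cells of 1 to 3% mitochondrial UMIs only 3 of 7 were lower (mt-Nd2 at 0.725, mt-Nd5 at 0.654 and mt-Nd6 at 0.609), and mt-Nd3 was at 1.102 and mt-Nd4 at 1.0.

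In the other classes fewer members passed the limit, and none was counted as higher in any class, where 27.5% (beta-like), 18.3% (alpha-like), 15.5% (delta-like), 17.4% (PP-like), 20.3% (endothelial-like) and 18.7% (macrophage-like) of all genes were. Alpha-like cells had 5 of 7 lower (11.7% of all genes), delta-like cells 5 (11.5%), PP-like cells 6 (17.3%), endothelial-like cells 6 (13.8%) and macrophage-like cells 4 (11.5%). Summed complex I had ratios of 0.715 (0.707 to 0.723) in alpha-like, 0.692 (0.676 to 0.708) in delta-like, 0.657 (0.640 to 0.674) in PP-like, 0.675 (0.653 to 0.697) in endothelial-like and 0.870 (0.831 to 0.912) in macrophage-like cells. mt-Nd1, mt-Nd2, mt-Nd5 and mt-Nd6 were lower in all 6 classes, mt-Nd3 in 4, mt-Nd4 in 3 and mt-Nd4l in 2. As UMIs per cell, with no scaling, summed complex I had CDS over saline ratios of 0.764 to 1.19 across the 6 classes. Only macrophage-like cells were above 1, with 27.9 UMIs per CDS cell and 23.5 per saline cell.

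**Figure D3:**
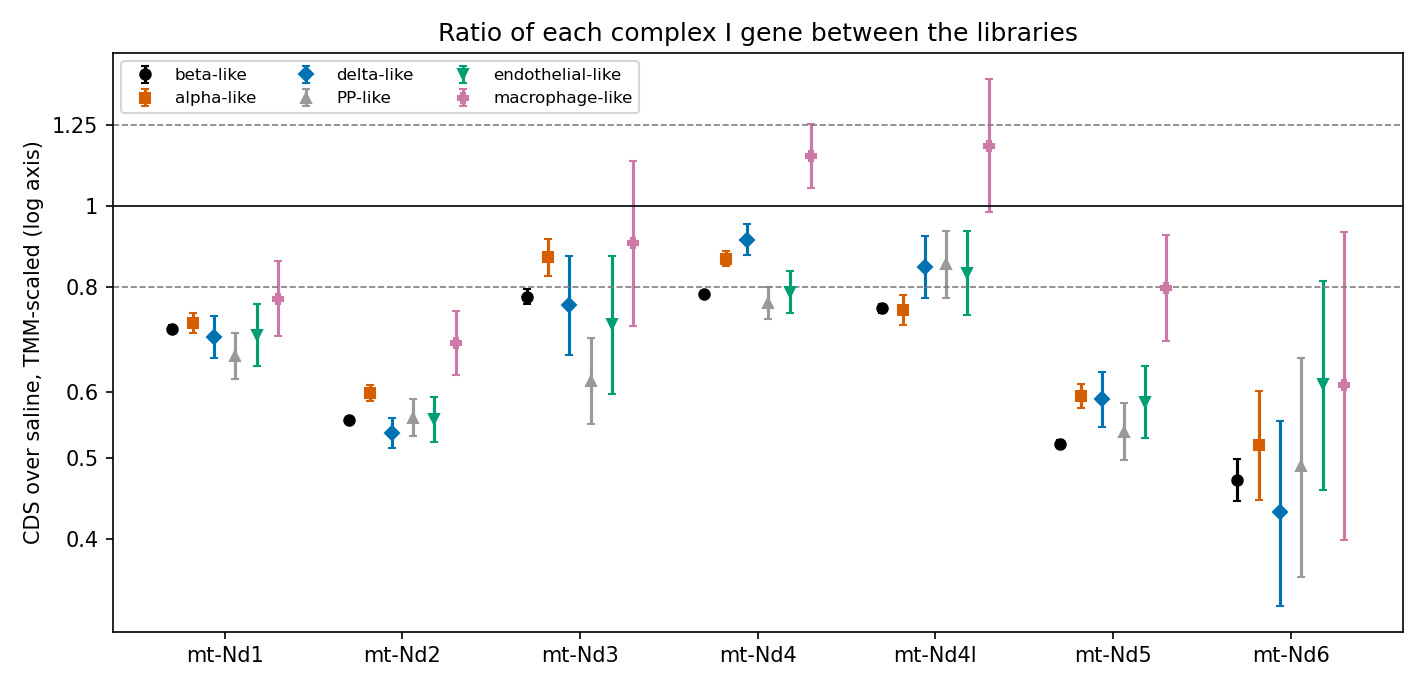
CDS over saline ratio of each complex I gene after TMM scaling (log axis) in 6 cell classes, with exact 95% counting intervals; dashed lines mark a ratio of 0.8 and its inverse. mt-Nd2, mt-Nd5 and mt-Nd6 lie lowest in 5 of 6 classes (in macrophage-like cells mt-Nd1 lies below mt-Nd5), and mt-Nd4 (1.15) and mt-Nd4l (1.18) of macrophage-like cells are the only values above 1, at 0.995 and 1.02 under plain CPM.

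In macrophage-like cells mt-Nd4 had 1300 CDS and 852 saline UMIs and a ratio of 1.15 (1.05 to 1.253), and mt-Nd4l 309 CDS and 197 saline UMIs and a ratio of 1.18 (0.984 to 1.418). Under plain CPM the ratio was 0.995 for mt-Nd4 and 1.02 for mt-Nd4l. Plain CPM, with no TMM factor, shifted the log2 ratios by -0.40 in beta-like cells and by -0.10 to -0.21 in the other classes, for genes of every kind alike. Every member had a plain ratio below 1 in every class except mt-Nd4l in macrophage-like cells, and summed complex I in beta-like cells had 0.508.

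The members did not shift in step, and this was seen most directly within the mitochondrial UMIs. mt-Nd2 took 7.26% (7.22 to 7.30) of mitochondrial UMIs in CDS beta-like cells and 9.60% (9.57 to 9.64) in saline ones. mt-Nd5 took 2.94% (2.91 to 2.96) in CDS cells and 4.15% (4.13 to 4.18) in saline cells. mt-Nd4 went the other way, with 11.1% (11.05 to 11.15) in CDS cells and 10.4% (10.36 to 10.44) in saline cells. The complex I sum was 29.4% (29.3 to 29.5) in CDS cells and 32.3% (32.2 to 32.3) in saline cells.

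mt-Nd2, mt-Nd5 and mt-Nd6 stood below 1 and mt-Nd4 above 1 in every class compared. The mt-Nd2 share had ratios, CDS over saline, of 0.718 to 0.873 across the 6 classes, with counting intervals of the 2 shares apart in 6 of 6. The ratio of the mt-Nd5 share was 0.707 to 0.876 (intervals apart in 5) and that of the mt-Nd6 share 0.578 to 0.862 (apart in 3). The mt-Nd4 share was higher in the CDS library in 6 of 6 classes, at 1.07 to 1.26, with intervals apart in all 6. mt-Nd4l was above 1 in 5 classes (0.988 to 1.33), though below it in 4 of 5 depth bins of beta-like cells, mt-Nd3 in 4 (0.966 to 1.14) and mt-Nd1 in 1 (0.8515 to 1.035). The classes come from the same 2 libraries and share their chemistry, sequencing and any free RNA, so 6 classes are not 6 replicates.

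**Figure D4:**
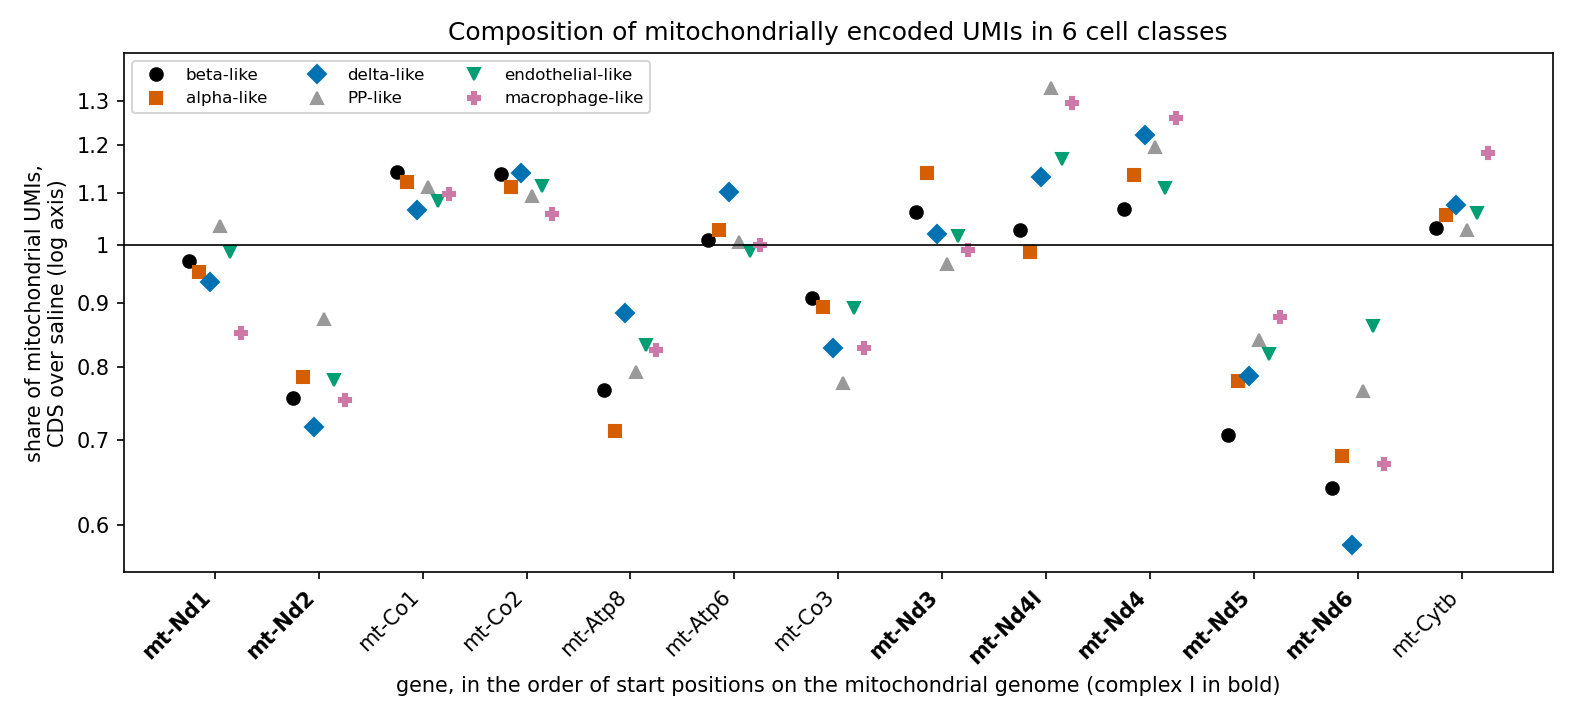
Share of all mitochondrially encoded UMIs held by each of the 13 genes, CDS over saline (log axis), in 6 cell classes, with genes ordered by start position and complex I genes in bold. mt-Nd2, mt-Nd5 and mt-Nd6 lie below 1 in 6 of 6 classes and mt-Nd4 above 1 in 6 of 6; among the other genes mt-Co3 and mt-Atp8 lie below 1 and mt-Co1, mt-Co2 and mt-Cytb above 1 in 6 of 6.

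The pattern did not follow complex membership. Among the 6 other mitochondrially encoded genes, the cytochrome c oxidase gene mt-Co3 had share ratios of 0.778 to 0.907 and the ATP synthase gene mt-Atp8 of 0.713 to 0.882, below 1 in all 6 classes. mt-Co1 (1.07 to 1.14) and mt-Co2 (1.06 to 1.14), of the same complex as mt-Co3, and mt-Cytb of complex III (1.027 to 1.18) were above 1 in all 6. mt-Atp6 lay at 0.990 to 1.101. It starts at 7927, before mt-Atp8 ends at 7969, so reads over the shared bases belong to both genes. How such reads were counted is not given, and the ratios of mt-Atp8 and mt-Atp6 cannot be read as separate messengers moving apart. In TMM ratios 4 of the 6 other genes were lower in beta-like cells and 0 higher (median log2 ratio -0.42), with mt-Atp8 at 0.563 and mt-Co3 at 0.666. Of all genes measured there, 18.9% were lower and 27.5% higher. In the plot of shares by position, genes below 1 and genes above 1 lie interspersed along the genome. The neighbours mt-Nd4 and mt-Nd5 are carried by the same precursor, and mt-Nd5 made 20.9% (20.7 to 21.1) of the UMIs of that pair in CDS beta-like cells and 28.6% (28.4 to 28.7) in saline ones. In macrophage-like cells it made 22.8% (20.8 to 24.8) in the CDS and 29.8% (27.2 to 32.4) in the saline library.

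**Figure D5:**
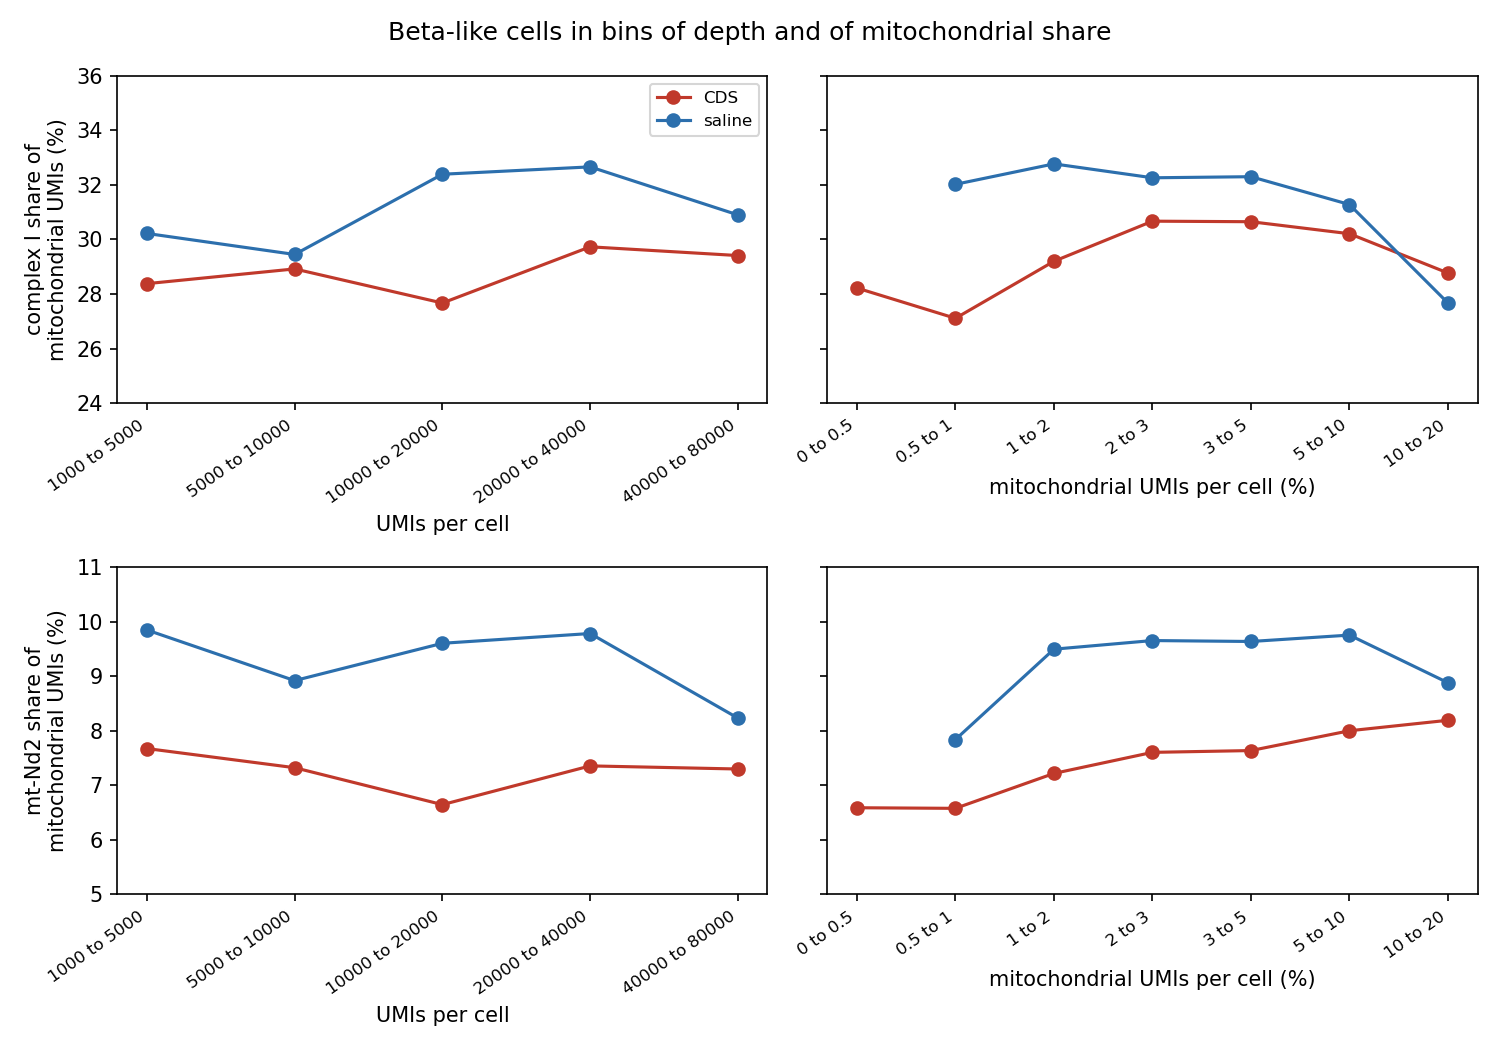
Share of mitochondrially encoded UMIs in beta-like cells held by all complex I genes (upper row) and by mt-Nd2 (lower row), in bins of UMIs per cell (left) and of the mitochondrial percent of the cell's UMIs (right); bins with fewer than 20 cells in a library are not drawn, and vertical axes do not start at 0. The CDS points lie below the saline points in every shared bin except the complex I share at 10 to 20% mitochondrial UMIs.

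Since depth and the mitochondrial share of cells differed between the libraries, beta-like cells were also compared within bins of each. In the 5 bins of depth from 1000 to 80000 UMIs, the summed complex I CPM was lower in CDS cells in 5 of 5, at ratios of 0.450 to 0.679 without TMM scaling. The complex I share of mitochondrial UMIs was lower in 5 of 5 bins (ratios 0.854 to 0.982), as were the shares of mt-Nd2 (0.692 to 0.887) and mt-Nd5 (0.699 to 0.872). The mt-Nd4 share was higher in 5 of 5 (1.01 to 1.135), but in cells of 8000 to 16000 UMIs its ratio was 1.004 (0.977 to 1.031), which does not separate the libraries. The mt-Nd4l share was lower in 4 of 5 (0.785 to 1.058) and stood at 0.890 (0.839 to 0.944) in cells of 8000 to 16000 UMIs, on the other side of 1 from its value over all beta-like cells (1.028). The mt-Nd6 share was lower in 3 of 5 (0.615 to 1.51), with 1 of the others resting on 23 saline cells of 40000 to 80000 UMIs.

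In the 6 bins of mitochondrial percent filled in both libraries, mt-Nd2 (0.760 to 0.922), mt-Nd5 (0.485 to 0.935) and mt-Nd6 (0.511 to 0.842) had lower shares in CDS cells in 6 of 6. The mt-Nd4 share was lower in 1 of 6 (0.991 to 1.339) and the mt-Nd4l share in 2 of 6 (0.646 to 1.154). The summed complex I CPM, which the bins largely fix, was lower in 4 of 6 (ratios 0.804 to 1.056). The complex I share was lower in 5 of 6, the exception being cells of 10 to 20% (21 CDS and 27 saline cells). Shares also moved with the mitochondrial percent within a library. In CDS cells mt-Nd1 took 3.05% of mitochondrial UMIs below 0.5% and 4.55% at 3 to 5%, and mt-Nd3 0.539% and 1.297%. In saline cells mt-Nd1 took 2.87% at 0.5 to 1% and 4.52% at 3 to 5%. The rise did not continue. At 10 to 20% mt-Nd1 took 3.14% in CDS and 3.92% in saline cells, and mt-Nd3 0.826% in CDS cells.

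Nuclear genes of the same complex lay on the other side. Of 36 nuclear complex I subunit genes, 35 were higher in CDS beta-like cells and 0 lower, with a median log2 ratio of 1.05 against 0.056 for all 15551 genes measured, where 27.5% were higher. Ndufb4 had 86.6 TMM-scaled CPM in CDS and 31.2 in saline cells, a ratio of 2.77 (2.66 to 2.89). Ndufc2 had 458.7 CPM in CDS and 177.3 in saline cells, a ratio of 2.59 (2.54 to 2.63). In the other 5 classes 27 to 33 of 36 were higher and at most 1 lower, where 15.5% to 20.3% of all genes were higher. Complex I assembly genes had 9 of 15 higher and 0 lower in beta-like cells (median 0.35), with Ndufaf8 at 2.28 (2.17 to 2.39) and Ndufaf4 at 1.79 (1.69 to 1.90). Under plain CPM, where the median of all genes was -0.34, the subunit genes had 29 higher and 1 lower (median 0.65) and the assembly genes 3 higher and 2 lower (median -0.04).

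Genes of mitochondrial RNA synthesis and maturation had 11 of 28 higher and 0 lower in beta-like cells after TMM scaling, with a median log2 ratio of 0.21. Of all genes measured there, 27.5% were higher and 18.9% lower, with a median of 0.056. Under plain CPM 1 gene of the list was higher and 7 lower, with a median of -0.19 against -0.34 for all genes. The sign of the list's median therefore depends on the scaling. Its distance from the median of all genes cannot, because scaling shifts every gene of a class alike. Slirp, which with Lrpprc binds and steadies mitochondrial messengers, had 35.7 TMM-scaled CPM in CDS and 15.8 in saline cells, a ratio of 2.26 (2.13 to 2.41). Hsd17b10, a part of the enzyme that cuts the 5′ ends of mitochondrial transfer RNAs, stood at 1.58 (1.47 to 1.70). Of 5 regulators of mitochondrial biogenesis 1 was higher and 3 lower (median -0.37). Ppargc1a, a coactivator that drives such genes, had a ratio of 0.699 (0.673 to 0.726), and the transcription factor gene Nrf1 0.775 (0.737 to 0.815). Under plain CPM 0 of these regulators were higher and 4 lower, Ppargc1a was at 0.531, and Slirp was at 1.72.

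2 further lists moved with the library in beta-like cells, where 18.9% of all genes were lower and 27.5% higher. Nuclear-retained RNAs had 4 of 6 lower and 0 higher (median log2 ratio -0.54), with Kcnq1ot1 at 0.596 (0.581 to 0.612) and Neat1 at 0.596 (0.583 to 0.611), and together took 0.860% of UMIs in CDS and 1.14% in saline cells. Digestive enzyme genes of acinar cells had 14 of 15 higher and 1 lower, with Pnlip, a lipase, at 4.85 (4.50 to 5.23) and Try4, a trypsin, at 4.51 (4.21 to 4.83), and together took 0.0523% of UMIs in CDS and 0.0476% in saline cells. In the 5 other classes the nuclear-retained RNAs took 1.93% to 2.87% of UMIs in the CDS library and 1.93% to 2.75% in the saline library, and the enzymes 0.0384% to 0.182% in the CDS and 0.0345% to 0.206% in the saline library. The nuclear-retained share was higher in CDS alpha-like (2.60%, saline 2.56%), delta-like (2.87%, saline 2.66%) and macrophage-like cells (1.932%, saline 1.927%). It was lower in CDS PP-like and endothelial-like cells. The enzyme share was lower in CDS alpha-like (0.182%, saline 0.206%) and endothelial-like cells (0.0969%, saline 0.103%). It was higher in CDS delta-like, PP-like and macrophage-like cells. The part of these lists in the complex I values was not tested.

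Over the 12 sums of 6 classes and 2 libraries, the nuclear genes whose log2 CPM was most like that of summed complex I were Scfd2 (Pearson r 0.964), Acaca (0.959), Mapre2 (0.940), Ireb2 (0.939) and Psme4 (0.936), of 10352 genes compared. Among the members, mt-Nd5 had r 0.987 with the sum it is part of, and mt-Nd6 0.463. The 12 sums share 2 libraries and their depth, and the values are descriptions.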

How the data were processed

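Droplet single-cell RNA libraries of islet cells were analysed, 1 from CDS-treated and 1 from saline-treated DIO mice. The authors deposited raw UMI counts per gene and barcode, made with Cell Ranger 7.1.0 per the file headers, on mm10 per the submitters' processing notes. The notes also name Seurat 4 and edgeR, with no role given. Neither the gene annotation nor the handling of introns is given in the sources used here, and the protocol text names both the v3.1 and the v2 chemistry. Members and lists were chosen with earlier results of these data known.

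Barcodes with at least 500 genes, 1000 UMIs and at most 20% mitochondrial UMIs were kept, which left 6415 CDS and 11591 saline barcodes. Scrublet in Scanpy 1.11.5 (expected rate 0.8% per 1000 barcodes) called 256 CDS and 614 saline doublets, which were removed. Of the cell's non-mitochondrial UMIs, beta-like cells had at least 10% from Ins1 and Ins2, and alpha-, delta- and PP-like cells at least 2% from Gcg, Sst or Ppy, with 1 hormone gate passed. Acinar-like cells had at least 10% from digestive enzymes. Other classes needed UMIs of 3 of 8 marker genes and more than any other panel. These gates are ranges: 93 CDS and 165 saline cells lay within 20% of the insulin limit, and 126 CDS and 118 saline cells near that of Ppy. In all, 370 CDS and 294 saline cells passed several hormone gates and 350 CDS and 1216 saline cells passed none, and these were left out. Free RNA was not removed.

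UMIs were summed per class and library where both had at least 50 cells. Levels are CPM with exact Poisson intervals, shares carry Clopper-Pearson intervals, and ratios use TMM factors (edgeR 4.0.16) with exact 95% intervals from Poisson counts conditioned on their sum. List counts under other scalings and class levels under the reduced denominator were added after seeing the data. Ratio code was tested on simulated data. Genes at 50 UMIs or more over both libraries and above 0 in each were measured. Per-list named genes are the 2 largest absolute log2 ratios in beta-like cells at 20 CPM or more. The likeness of genes used log2(CPM + 1). Sequences and positions came from GENCODE M21. Python 3.11.15, SciPy 1.17.1 and R 4.3.3 were used.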

Additional observations from a re-analysis of the deposited data

How the results depend on the processing

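The ratio of summed complex I in beta-like cells (0.669) stayed below 1 under all 14 alternatives. It was 0.508 with plain CPM, 0.654 with median-of-ratios factors from DESeq2 and 0.547 with hormone, enzyme and mitochondrial UMIs left out of the denominator. It was 0.672 with the looser cell filter of 200 genes, 500 UMIs and 25% mitochondrial UMIs, 0.676 with doublets kept, 0.687 with looser gates, 0.675 with hormone-free marker panels, 0.690 as a mean over cells, 0.636 with cells thinned to 5000 UMIs and 0.681 in cells of 8000 to 16000 UMIs. In cells with 1 to 3% mitochondrial UMIs, a limit on nearly the same quantity, it was 0.868, 3 members were counted as lower in place of 7 (6 with looser gates and as a mean over cells), and the ratios of mt-Nd3 and mt-Nd4 were 1.102 and 1.0. The complex I share ratio (0.910) was 0.918 with looser gates and 0.856 in cells of 8000 to 16000 UMIs, and lay between these under the 9 others. The macrophage-like ratio of summed complex I ranged from 0.751 to 1.026, the highest in cells with 1 to 3% mitochondrial UMIs. With the reduced denominator the RNA maturation list had 6 higher and 5 lower, in place of 11 and 0. No paired analysis was possible because each group has 1 library, and no library could be left out. Depth limits mt-Nd6 most, with 43 to 312 CDS UMIs outside beta-like cells.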
